A study of Mus musculus with 8 samples.

Results

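Paired immunoglobulin-like receptors of myeloid cells were examined in whole aortas of ApoE-/- and WT mice. The 10 receptors, out of 21859 genes counted, were Lair1, Pirb, Pira2, Lilrb4a, Lilr4b, Cd300a, Cd300lb, Cd300ld, Cd300lf and Sirpa, and they were found by gene symbol. They were selected on their measured levels in the ApoE-/- against WT comparison of these same libraries, so their own differences between genotypes are given as a description. How many of them a fit over all genes called is given with the share or number of all genes called, and supports nothing. The aortas came from 4 ApoE-/- and 4 WT male C57BL/6 mice, all 40 weeks old and on normal chow, with 1 stranded, ribodepleted total RNA library per mouse. ApoE-/- mice lack apolipoprotein E in every tissue, and the comparison addresses which transcripts differ in an atherosclerosis-prone aorta. Between 23240995 and 23940156 read pairs were counted on genes per ApoE-/- library, and between 18375898 and 21664598 per WT library. Depth therefore did not overlap between the genotypes, which bears most on genes with few counts. Apoe itself, the disrupted gene, was at 14.7 to 36.3 CPM (counts scaled to library size, with TMM normalization) in ApoE-/- aortas and at 536 to 857 CPM in WT aortas, so each library had the level of its labelled genotype.

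These receptors carry immunoglobulin-like domains outside the cell and come in pairs of closely related proteins with opposite outputs. Inhibitory members hold tyrosine motifs (ITIMs) in a long tail that recruit the phosphatases SHP-1, encoded by Ptpn6, and SHP-2, encoded by Ptpn11. Activating members have a short tail and signal through the adaptors DAP12, encoded by Tyrobp, or the Fc receptor gamma chain, encoded by Fcer1g. Lair1, Pirb, Lilrb4a, Cd300a, Cd300lf and Sirpa are known as inhibitory, and Pira2, Cd300lb and Cd300ld as activating. Lilr4b is a close copy of Lilrb4a without the inhibitory motifs. Macrophages, monocytes, neutrophils, dendritic cells and mast cells carry most of these proteins, while Sirpa is also abundant on neurons. In whole tissue, more cells of a type and more RNA per cell cannot be told apart.

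The receptor genes lie in 4 places of the GRCm38 genome. Pirb (chr7:3711409-3720391), Pira2 (chr7:3836812-3845051) and Lair1 (chr7:4003402-4063204) are neighbours on chromosome 7, on the minus strand, and end 15.6 to 16.0 Mb before Apoe on the same chromosome. Lilr4b (chr10:51480632-51486703) and Lilrb4a (chr10:51490956-51496611) are adjacent on the plus strand of chromosome 10. Cd300a (chr11:114890041-114904654) on the plus strand, and Cd300lb (chr11:114922781-114934386), Cd300ld (chr11:114982274-114989922) and Cd300lf (chr11:115116214-115133992) on the minus strand, form a cluster on chromosome 11. Sirpa (chr2:129592835-129632228) stands alone on the plus strand of chromosome 2.

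Sequences just upstream of 8 of the 10 receptors were found in the RefSeq promoter set for GRCm38.p6. Of these 5 are shown, each as the 250 bases before the start in that set, read 5′ to 3′ on the strand of the gene. For Pirb and Cd300ld this start lies inside the gene coordinates given above, so the last bases shown overlap the gene. Pirb and Pira2 are shown because this pair of opposite outputs has nearly the same upstream sequence, Lair1 as the neighbour of that pair, and Cd300ld and Cd300lf as an activating and an inhibitory member of the cluster on chromosome 11. Capitals mark GAGGAA and GGAAGT on either strand, which hold the GGAA core bound by ETS factors such as PU.1, a master regulator of myeloid cells. Where both patterns overlap, the capitals run through.
Pirb (chr7:3720383-3720632, minus strand): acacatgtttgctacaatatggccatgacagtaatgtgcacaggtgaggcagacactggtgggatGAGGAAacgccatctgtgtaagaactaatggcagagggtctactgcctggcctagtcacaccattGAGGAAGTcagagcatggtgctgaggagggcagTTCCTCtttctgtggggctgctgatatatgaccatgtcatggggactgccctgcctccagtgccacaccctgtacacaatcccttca
Pira2 (chr7:3845052-3845301, minus strand): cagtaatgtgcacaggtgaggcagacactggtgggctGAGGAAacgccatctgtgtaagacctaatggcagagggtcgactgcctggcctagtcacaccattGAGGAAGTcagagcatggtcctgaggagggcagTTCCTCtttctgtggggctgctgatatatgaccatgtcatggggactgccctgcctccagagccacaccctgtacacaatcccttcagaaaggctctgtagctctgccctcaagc
Lair1 (chr7:4063205-4063454, minus strand): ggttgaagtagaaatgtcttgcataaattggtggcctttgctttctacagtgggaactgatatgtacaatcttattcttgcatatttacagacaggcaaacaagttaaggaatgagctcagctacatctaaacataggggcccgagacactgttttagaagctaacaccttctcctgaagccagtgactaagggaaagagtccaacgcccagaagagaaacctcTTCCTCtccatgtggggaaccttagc
Cd300ld (chr11:114989887-114990136, minus strand): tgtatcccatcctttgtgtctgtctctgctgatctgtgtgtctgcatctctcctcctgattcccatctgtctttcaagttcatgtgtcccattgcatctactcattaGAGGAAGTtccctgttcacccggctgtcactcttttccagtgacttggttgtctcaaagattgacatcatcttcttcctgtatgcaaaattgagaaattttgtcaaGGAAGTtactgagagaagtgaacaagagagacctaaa
Cd300lf (chr11:115133993-115134242, minus strand): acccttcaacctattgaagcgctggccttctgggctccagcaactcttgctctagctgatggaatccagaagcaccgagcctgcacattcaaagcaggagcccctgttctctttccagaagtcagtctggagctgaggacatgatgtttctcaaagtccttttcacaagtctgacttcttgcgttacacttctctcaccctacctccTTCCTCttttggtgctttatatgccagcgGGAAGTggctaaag

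The Pirb and Pira2 sequences lined up with a shift of 28 bases and were identical at 217 of the 222 bases they then shared (97.7%). Between any other 2 of the 8 upstream sequences, the best ungapped match was 28.5% to 36.2% identical. GAGGAA was present upstream of 6 of the 8 receptors and in 23.1% of 27025 promoters of the same length, and GGAAGT upstream of 5 of the 8 and in 19.99% of all promoters. Cd300a has GAGGAA and Cd300lb GGAAGT, so only Lilr4b of the 8 has neither, and 36.8% of all promoters have at least 1 of these patterns. The AP-1 pattern TGANTCA was in 0 of the 8 and in 6.87% of all promoters. These are letter matches and were not tested as binding sites.

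How well short reads separate these genes differs between members. Pairs that aligned to several places were not counted on genes, so a gene with near-identical copies is undercounted. For Pira2, 93.0% of the 50-base stretches of its transcripts also occur in transcripts of another gene, most often Gm15922. The share was 34.0% for Pirb, 47.2% for Lilrb4a and 24.5% for Lilr4b, and 0 to 3.89% for the other 6 receptors. Lilrb4a and Lilr4b are overlapped on the same strand by a joint gene model, Gm49339, which had 0 counts in all 8 libraries. It holds 33.7% of the 50-base stretches of Lilrb4a. Pairs set aside as ambiguous are counted on no gene, so these 0 counts do not show that Lilrb4a and Lilr4b lost no pairs to the overlap. Cd300lf is overlapped on the opposite strand by Rab37, at 0.918 to 5.28 CPM in ApoE-/- and 1.82 to 2.38 CPM in WT aortas. The libraries keep strand and the deposited tables are named as stranded and unique, but the settings of the counting are not given in the sources used here.

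The inhibitory receptors were higher in ApoE-/- aortas in the fitted values of edgeR, by a log2 fold change of 1.18 for Sirpa up to 3.98 for Cd300lf. Lair1, a receptor for collagen and C1q (ENSMUSG00000055541.17), was at 9.09, 9.14, 16.6 and 21.4 CPM in ApoE-/- replicates 1 to 4 and at 3.21, 3.56, 2.16 and 2.30 CPM in WT replicates 1 to 4. The lowest ApoE-/- value was 2.56 times the highest WT value. The mean was 14.1 ± 6.03 CPM (SD, n = 4) in ApoE-/- and 2.81 ± 0.684 CPM in WT aortas, and the fitted log2 fold change was 2.32 (SE 0.34).

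Cd300lf (CLM-1), which binds phosphatidylserine and ceramide on other cells, showed the widest gap (ENSMUSG00000047798.15). It was at 2.44, 2.54, 6.62 and 7.20 CPM in the ApoE-/- aortas and at 0.0918, 0.421, 0.222 and 0.431 CPM in the WT aortas, where it had 2, 9, 4 and 9 counts. Its lowest ApoE-/- value was 5.65 times its highest WT value, and the log2 fold change was 3.98 (SE 0.59). With so few WT counts, and because it passed the filter on low counts through the ApoE-/- libraries, the size of this value is uncertain.

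Pirb, which binds MHC class I and sets a brake on myeloid cells and B cells (ENSMUSG00000058818.13), was at 13.5, 19.7, 23.7 and 44.3 CPM in ApoE-/- aortas. In WT aortas it was at 9.32, 6.83, 4.76 and 6.94 CPM. The genotypes did not overlap, but ApoE-/- replicate 1 was 1.45 times the highest WT mouse, and the log2 fold change was 1.86 (SE 0.38).

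Lilrb4a (gp49B), an inhibitory receptor of macrophages and mast cells whose human counterpart LILRB4 has been described to bind apolipoprotein E, was at 7.06, 12.3, 17.6 and 24.3 CPM in ApoE-/- aortas (ENSMUSG00000112148.1). It was at 4.41, 4.45, 2.60 and 3.93 CPM in WT aortas, again below every ApoE-/- mouse, with a log2 fold change of 1.99 (SE 0.38). Its neighbour Lilr4b (gp49A, ENSMUSG00000112023.1) had higher CPM and was further apart, at 17.3, 28.6, 61.8 and 70.0 CPM against 8.90, 8.33, 4.16 and 6.08 CPM. Sequence shared with other gene models can lower the counts of either gene, so their levels against each other are uncertain. For Lilr4b, ApoE-/- replicates 3 and 4 stood well above replicates 1 and 2, and the log2 fold change was 2.69 (SE 0.48).

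Cd300a (ENSMUSG00000034652.12), an inhibitory receptor for phosphatidylserine and phosphatidylethanolamine, was at 6.05, 7.87, 13.9 and 20.4 CPM in ApoE-/- aortas and at 5.05, 3.56, 3.66 and 4.36 CPM in WT aortas. The genotypes lay close together at their edges, with ApoE-/- replicate 1 at 1.20 times WT replicate 1, and the log2 fold change was 1.53 (SE 0.38). Sirpa, the receptor for the "do not eat me" protein CD47 (ENSMUSG00000037902.18), was the most abundant of the 10, at 102, 104, 144 and 184 CPM against 61.1, 66.7, 48.6 and 58.8 CPM. It had the smallest log2 fold change, 1.18 (SE 0.21), and also the smallest spread, with the highest ApoE-/- mouse at 1.80 times the lowest.

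Among the activating receptors, Cd300ld (CLM-5, ENSMUSG00000034641.2), which signals through the Fc receptor gamma chain, was at 5.48, 7.70, 9.02 and 16.0 CPM in ApoE-/- aortas and at 4.13, 3.60, 2.83 and 2.82 CPM in WT aortas (log2 fold change 1.51, SE 0.34). Cd300lb (CLM-7, ENSMUSG00000063193.9), which signals through DAP12, was at 2.11, 4.15, 6.32 and 9.68 CPM against 2.07, 2.01, 0.997 and 1.91 CPM (log2 fold change 1.66, SE 0.47). For Cd300lb the genotypes touched, since the lowest ApoE-/- value was 1.02 times the highest WT value. Pira2 (ENSMUSG00000089942.9), the activating partner of Pirb, did not pass the filter on low counts. It had 5, 7, 14 and 23 counts in ApoE-/- aortas and 2, 1, 0 and 0 counts in WT aortas. The ratio of the summed counts per normalized library size, 49 against 3 counts, was 14.3 (95% exact interval 4.63 to 71.9, which covers counting error only). With most of its sequence shared with other genes, these counts may understate its level.

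**Figure D1:**
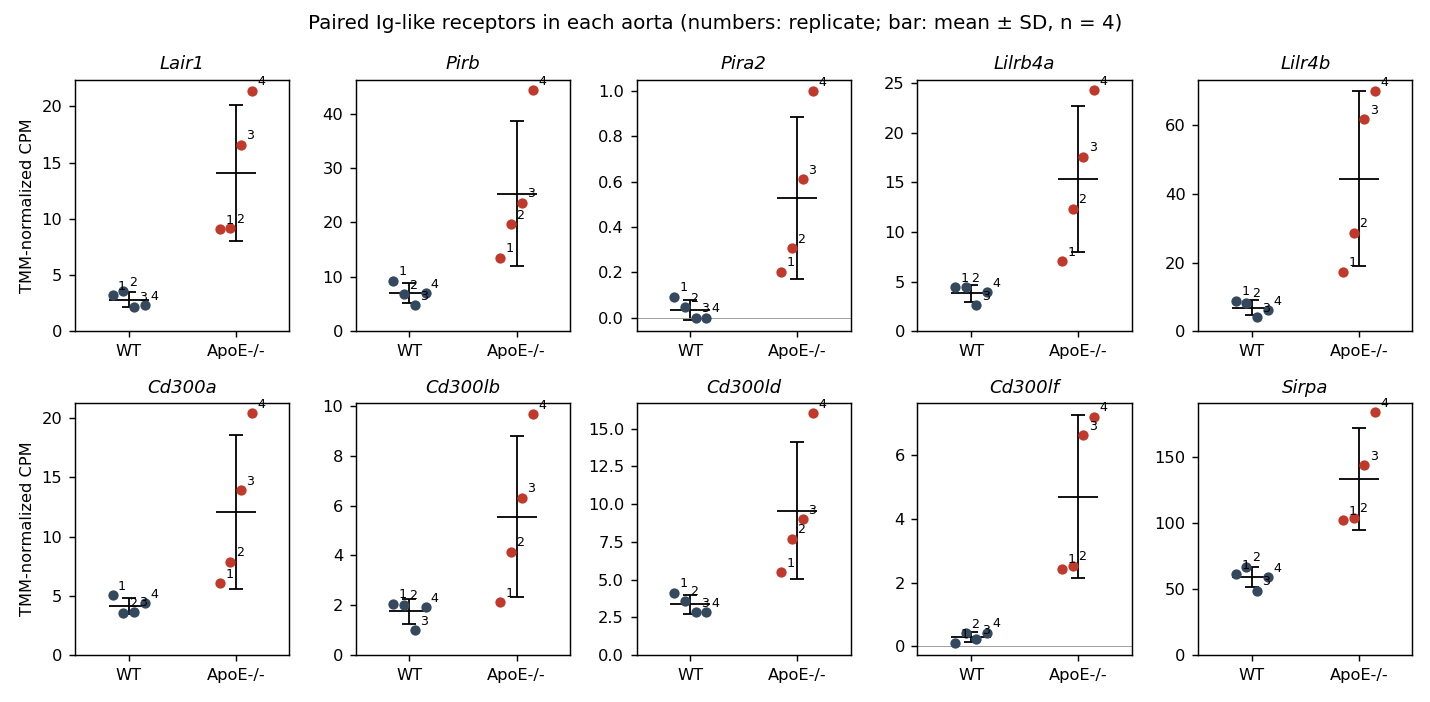
TMM-normalized CPM of the 10 receptors in each aorta, with WT on the left and ApoE-/- on the right of each panel, the replicate number beside each point, and a bar for the mean ± SD (n = 4). Every ApoE-/- point lies above every WT point in each panel, with the smallest gap for Cd300lb (1.02 times) and the widest for Cd300lf (5.65 times).

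The order of the mice was shared by the receptors. ApoE-/- replicate 4 was the highest and ApoE-/- replicate 1 the lowest of the 4 ApoE-/- aortas for all 10 receptors, by a factor of 1.80 for Sirpa up to 4.92 for Pira2. In WT aortas the spread was smaller for 8 of the receptors, at 1.37 to 2.14 times. For Cd300lf, with few WT counts, it was larger in WT (4.69 times) than in ApoE-/- aortas (2.96 times), and for Pira2 it has no value because 2 WT mice had 0 counts. WT replicate 3 was the lowest WT mouse for 6 of the 10, and for Pira2 it was level with WT replicate 4. The 10 genes are parts of the same libraries, so a shared order is not 10 separate observations.

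Of the 10 receptors, 9 passed the low-count filter of edgeR. In its quasi-likelihood test over all 15077 genes that passed, 2 of the 9, Lair1 and Cd300lf, had an adjusted p under 0.05, where 0.371% of all genes were called higher, 0.0929% lower and 0.464% in either direction. With DESeq2 all 9 were called higher, where 3.12% of all genes were higher and 1.69% lower. The genotypes did not overlap, with ApoE-/- higher, for all 9 and also for Pira2, which was not among the genes tested, where this held for 5.41% of all genes and the reverse for 3.30%. All 9 had a log2 fold change above 0, as had 58.0% of all genes, and the median was 1.86 over the 9 receptors and 0.05 over all genes. As the receptors were chosen with this comparison in view, nothing is read from these shares. The number called by edgeR changed with single mice, among the receptors and among all genes alike. It was 9 without ApoE-/- replicate 1, where 2.75% of all genes were called higher and 1.16% lower, and 0 without any 1 of the other 7 mice, where edgeR called 0 to 15 higher genes in all. DESeq2 called 8 to 9 of the receptors whichever mouse was left out, among 291 to 871 higher and 141 to 691 lower genes in all. Leaving out each mouse in turn, the median log2 fold change over the 9 stayed between 1.44 (without ApoE-/- replicate 4) and 2.06 (without ApoE-/- replicate 1).

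Levels were compared between receptors per kb of annotated exon. In WT aortas Sirpa was at 11.98 ± 1.54 CPM per kb (SD, n = 4), far above the next receptors, which were Pirb at 1.56 ± 0.416, Cd300ld at 1.27 ± 0.242 and Lilr4b at 1.26 ± 0.401 CPM per kb, whose ranges over the 4 mice overlapped. Cd300a (0.877 ± 0.146), Lilrb4a (0.736 ± 0.165) and Cd300lb (0.599 ± 0.173) followed, then Lair1 (0.376 ± 0.0915), each with a range that overlapped that of its neighbours. Cd300lf (0.0566 ± 0.0319) lay below all of these, and its range overlapped that of Pira2 (0.0100 ± 0.0127 CPM per kb). In ApoE-/- aortas Sirpa was at 27.2 ± 7.89 CPM per kb and Lilr4b came next at 8.17 ± 4.68, with Pirb at 5.65 ± 2.98 and Cd300ld at 3.61 ± 1.72 CPM per kb. Lilr4b thus had the fourth highest mean in WT and the second highest in ApoE-/- aortas, but its ApoE-/- range, 3.18 to 12.9 CPM per kb, included the Pirb mean. Both genes come from the same mice. Lilr4b and Pirb were lowest in ApoE-/- replicate 1, at 3.18 and 3.02 CPM per kb. They were highest in ApoE-/- replicate 4, at 12.9 and 9.90 CPM per kb. Pirb was far more abundant per kb than Pira2 in both genotypes, a gap that the shared sequence of Pira2 can enlarge. Shared sequence can also lower the levels of Lilrb4a, Lilr4b and Pirb by unequal amounts, so the places of these genes in the order are uncertain.

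**Figure D2:**
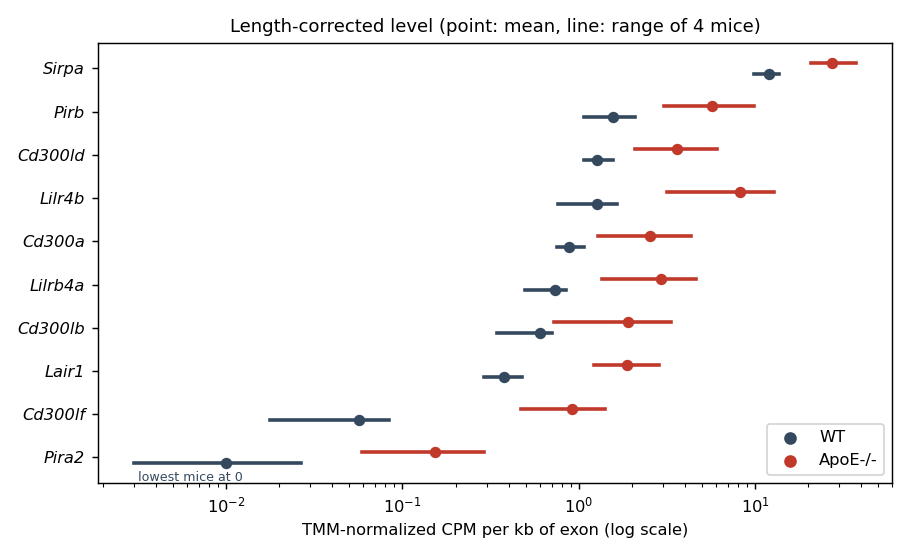
Length-corrected level of the 10 receptors in TMM-normalized CPM per kb of exon (log scale), with points for the mean and lines for the range of 4 mice, WT in dark blue and ApoE-/- in red. Sirpa lies above all others in both genotypes, and Lilr4b moves from 1.26 CPM per kb in WT to 8.17 CPM per kb in ApoE-/- aortas.

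Levels of macrophage markers moved with the receptors. All 10 genes of this list, which included Csf1r, Cd68, Adgre1, Lyz2 and Mpeg1, had higher fitted values in ApoE-/- aortas (median log2 fold change 1.78, range 0.20 for Mertk to 3.37 for Ctss), and edgeR called 2 of them higher, Fcgr1 and Mpeg1, where 0.371% of all genes were. DESeq2 called 7, where 3.12% were. Without ApoE-/- replicate 1 edgeR called 6 of the 10 markers, where 2.75% of all genes were higher, and in 5 of the 8 fits that left out 1 mouse it called 0 higher genes of any kind. Their summed level was 442, 968, 1163 and 2053 CPM in ApoE-/- replicates 1 to 4, the same order of mice as for the receptors, and 327 to 395 CPM in WT aortas. Monocyte markers summed to 46.4, 35.2, 29.2 and 68.1 CPM in ApoE-/- replicates 1 to 4 against 12.7 to 22.4 CPM in WT aortas. Neutrophil markers summed to 12.3, 8.22, 8.10 and 18.6 CPM against 3.38 to 4.50 CPM, so both had another order of mice. Ly6g and Mpo were at 0.0468 CPM or less in every library. Of the 9 neutrophil markers 3 passed the low-count filter, with 1 called higher by edgeR and 2 by DESeq2. Csf3r, the receptor for granulocyte colony-stimulating factor, was at 5.34 to 8.77 CPM against 1.16 to 2.11 CPM (log2 fold change 1.97, SE 0.26, edgeR adjusted p = 0.0379). S100a9, at 1.01 to 3.60 CPM against 0.383 to 0.459 CPM, was called by DESeq2 alone (adjusted p = 0.00174). It had 8 to 10 counts in each WT library and passed the low-count filter through the ApoE-/- libraries, so the size of its difference is uncertain. Elane, the other tested marker, had the opposite sign, at 0.218 to 1.69 CPM against 0.749 to 1.58 CPM, with overlap (log2 fold change -0.44, SE 0.55, edgeR adjusted p = 0.839). The sums of mast cell markers (27.4 to 92.4 against 27.3 to 57.8 CPM) and of dendritic cell markers (70.6 to 123 against 79.9 to 94.4 CPM) overlapped between the genotypes. The dendritic cell sum had the same order of mice as the receptors, at 70.6, 99.8, 112 and 123 CPM in ApoE-/- replicates 1 to 4. The markers within it went in opposite directions. Itgax, an integrin that many macrophages also carry, was at 7.31 to 54.99 CPM against 1.16 to 1.83 CPM and was called higher by edgeR (log2 fold change 4.44, SE 0.61, adjusted p = 0.038), while Clec9a (8.93 to 10.8 against 11.97 to 13.6 CPM) and Zbtb46 (44.1 to 57.6 against 62.6 to 76.0 CPM) were below every WT mouse in each ApoE-/- mouse without an edgeR call. DESeq2 called Clec9a lower (adjusted p = 0.0364) and did not call Zbtb46 (adjusted p = 0.0519). B cell markers summed to 12.5, 5.64, 11.98 and 5.08 CPM in ApoE-/- replicates 1 to 4 and to 2.88 to 5.17 CPM in WT aortas, and all 4 had positive fitted values (median log2 fold change 1.20). T cell markers summed to 3.59 to 8.42 CPM against 1.88 to 4.26 CPM. Both sums overlapped between the genotypes, and neither list had a gene called by edgeR or DESeq2. In each list 2 of 4 tested genes had an unadjusted p under 0.05 in edgeR, where 7.19% of all genes were higher and 4.17% lower at that level. The part of these cells in the receptor levels was not tested.

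Per 1000 CPM of macrophage markers, most of the differences in the receptors were no longer free of overlap. Lair1 was then at 20.6, 9.44, 14.3 and 10.4 in the ApoE-/- aortas and at 8.13, 10.9, 6.37 and 6.19 in the WT aortas, with overlap. Cd300a (8.13 to 13.7 against 10.8 to 12.8) and Sirpa (89.6 to 231 against 143 to 204) overlapped as well, as did Pirb, Lilrb4a, Cd300lb and Cd300ld. The other 3 receptors did not overlap. Lilr4b was at 29.6 to 53.2 against 12.2 to 25.5, Cd300lf at 2.62 to 5.69 against 0.232 to 1.29, and Pira2, on few counts, at 0.316 to 0.524 against 0 to 0.232. The denominator is a sum of few genes that themselves differ between genotypes by unequal amounts, so these ratios are a description and are not levels per cell.

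Libraries also differed in other tissue around the aorta. Sympathetic neuron markers summed to 3674 CPM in ApoE-/- replicate 1 and to 40.9 to 284 CPM in the other ApoE-/- aortas, against 167 to 648 CPM in WT aortas. In the same library smooth muscle markers were at 4257 CPM, against 9679 to 18164 CPM in the other 7. ApoE-/- replicate 1 had the lowest Sirpa of the ApoE-/- aortas (102 CPM) beside the highest neuron markers. Cardiac muscle markers were at 18.4 to 109 CPM in ApoE-/- and at 191 to 418 CPM in WT aortas. The part of these tissues in the receptor levels was not tested.

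**Figure D3:**
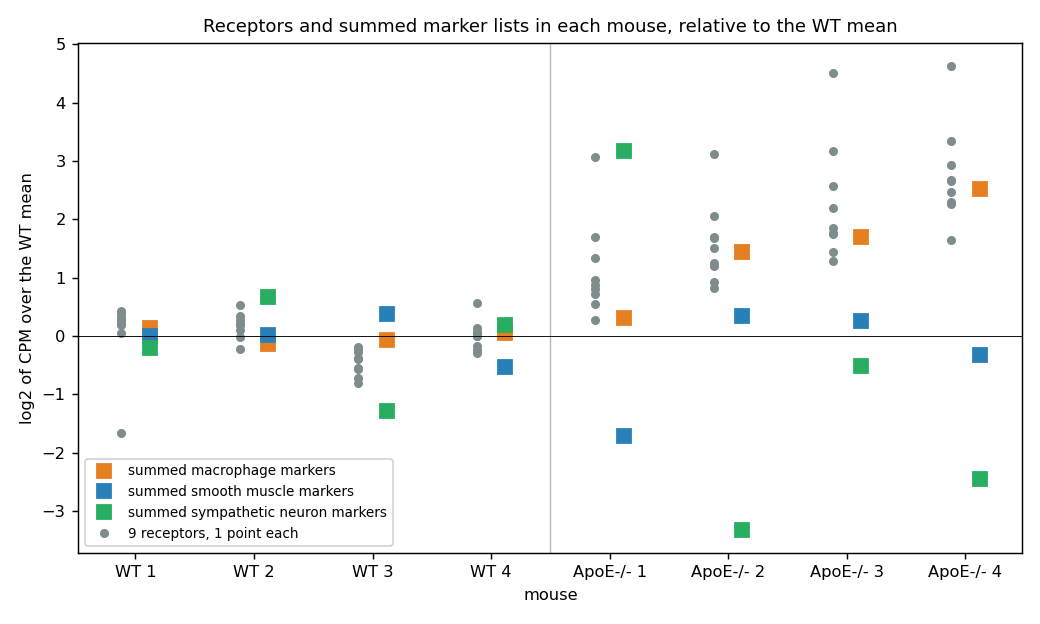
For each mouse, the log2 of the CPM over the WT mean for the 9 receptors that passed the low-count filter (grey points) and for the summed markers of macrophages, smooth muscle and sympathetic neurons (squares). In ApoE-/- replicates 1 to 4 the macrophage sums of 442, 968, 1163 and 2053 CPM lie among the receptors or at their lower edge, while the neuron sum is high in replicate 1 alone.

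Relatives of the 10 receptors were taken from a list by family name. Of 28 symbols, 17 were matched and 3 passed the low-count filter, with 0 called by edgeR (2 at an unadjusted p under 0.05, where 7.19% of all genes were higher and 4.17% lower at that level) and 2 by DESeq2, which were 1 higher and 1 lower, where 3.12% of all genes were higher and 1.69% lower. Cd300c2 (CLM-4), an activating receptor of the cluster on chromosome 11, was at 2.88 to 13.3 CPM in ApoE-/- and 0.942 to 1.65 CPM in WT aortas, without overlap (log2 fold change 2.35, SE 0.47, edgeR adjusted p = 0.0709, DESeq2 adjusted p = 0.000158). Cd300lg (nepmucin), the member of the family that is made by capillary endothelium, had the opposite sign, at 70.9 to 127 CPM against 156 to 203 CPM (log2 fold change -0.94, SE 0.19, edgeR adjusted p = 0.0729, DESeq2 adjusted p = 0.000161). All 4 endothelium markers also had lower fitted values (median -0.32), with 1213 to 2120 CPM in sum against 1769 to 2313 CPM. Of these, Cdh5, the cadherin of endothelial junctions, was at 198 to 234 CPM against 261 to 306 CPM, without overlap, and was called lower by DESeq2 (adjusted p = 0.00303) but not by edgeR (adjusted p = 0.219). The part of endothelium in the Cd300lg level was not tested. Lilra5 was at 1.09 to 3.26 CPM against 0.918 to 1.27 CPM (log2 fold change 0.80, SE 0.39, edgeR adjusted p = 0.505).

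Of 12 other paired receptors of the immunoglobulin superfamily, 9 passed the filter and all 9 had positive fitted values (median log2 fold change 0.91), with 0 called by edgeR (4 at an unadjusted p under 0.05, where 7.19% of all genes were higher and 4.17% lower) and 2 by DESeq2, where 3.12% of all genes were higher. Pilra, an inhibitory receptor for sialylated proteins, was at 1.66 to 2.92 CPM against 0.515 to 0.918 CPM (log2 fold change 1.73, SE 0.30, edgeR adjusted p = 0.0526, DESeq2 adjusted p = 0.000447). Cd33, a sialic acid receptor, was at 10.1 to 21.4 CPM against 4.76 to 9.23 CPM (log2 fold change 1.20, SE 0.29, edgeR adjusted p = 0.117, DESeq2 adjusted p = 0.00663). Cd200r4 was at 0.446 to 3.04 CPM against 0.328 to 0.459 CPM, with overlap (edgeR adjusted p = 0.248).

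The signalling genes below these receptors were tested as a list of 23, all of which passed the filter. All 23 had positive fitted values, with a median log2 fold change of 0.74 beside 0.05 over all genes, and edgeR called 2 of them higher, where 0.371% of all genes were. Fgr, a Src family kinase of myeloid cells, rose from 1.24 ± 0.452 CPM (SD, n = 4) in WT to 8.63 ± 2.68 CPM in ApoE-/- aortas (log2 fold change 2.79, SE 0.35, edgeR adjusted p = 0.0355). Vav1, an exchange factor downstream of Syk, rose from 3.78 ± 0.775 to 14.5 ± 5.59 CPM (log2 fold change 1.94, SE 0.30, edgeR adjusted p = 0.0462). DESeq2 called 11 of the 23, where 3.12% of all genes were higher. Without ApoE-/- replicate 1 edgeR called 10 of them, where 2.75% of all genes were higher, and without any 1 of the other 7 mice it called 0, Fgr and Vav1 included.

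The adaptors of the activating receptors had larger fitted values than most of the list. Tyrobp was at 12.9, 21.6, 27.4 and 56.3 CPM in ApoE-/- and at 7.71, 8.05, 5.43 and 7.71 CPM in WT aortas, without overlap (log2 fold change 2.03, SE 0.42, edgeR adjusted p = 0.0796, DESeq2 adjusted p = 0.000193). Fcer1g was at 9.66 to 27.3 CPM against 4.40 to 6.94 CPM (log2 fold change 1.53, SE 0.33, edgeR adjusted p = 0.0853, DESeq2 adjusted p = 0.00083). Neither passed the edgeR threshold.

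The phosphatases that the inhibitory motifs recruit were unlike each other in their values. Ptpn6, made mainly by blood cells, was at 8.44 to 19.6 CPM against 2.88 to 5.94 CPM (log2 fold change 1.43, SE 0.34, edgeR adjusted p = 0.109, DESeq2 adjusted p = 0.00354). Ptpn11, made by nearly every cell, was at 241 to 279 CPM against 227 to 256 CPM (log2 fold change 0.09, SE 0.11, edgeR adjusted p = 0.833). Inpp5d (SHIP-1), a lipid phosphatase of blood cells, was at 30.8 to 71.8 CPM against 26.9 to 31.3 CPM, with overlap (log2 fold change 0.70, SE 0.24, edgeR adjusted p = 0.279). The difference between Ptpn6 and Ptpn11 was itself not tested.

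Other kinases and relay proteins between receptor and response did not pass the edgeR threshold. Syk, the kinase that docks on phosphorylated adaptors, was at 27.97 to 63.6 CPM against 20.4 to 24.8 CPM (log2 fold change 1.06, SE 0.24, edgeR adjusted p = 0.103). Btk, Lcp2, Card9 and Dok3 had log2 fold changes of 1.28, 1.31, 1.24 and 0.74, with edgeR adjusted p of 0.12, 0.0652, 0.106 and 0.11. DESeq2 called each of these 5 genes higher.

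Genes of known ligands were tested as a list of 20, of which 19 had positive fitted values (median log2 fold change 0.43), 0 were called by edgeR (6 at an unadjusted p under 0.05, where 7.19% of all genes were higher and 4.17% lower) and 5 by DESeq2, where 3.12% of all genes were higher. These 5 are ligands of Lair1. C1qa, a subunit of complement C1q made by macrophages, was at 52.4 to 188 CPM against 27.4 to 39.8 CPM (log2 fold change 1.55, SE 0.38, edgeR adjusted p = 0.121, DESeq2 adjusted p = 0.00297). C1qb and C1qc had log2 fold changes of 1.81 and 1.66 (edgeR adjusted p = 0.09 and 0.106, DESeq2 adjusted p = 0.000371 and 0.00111). Col3a1, a fibrillar collagen chain, was at 1484 to 3797 CPM against 917 to 1301 CPM (log2 fold change 1.36, SE 0.32, edgeR adjusted p = 0.107, DESeq2 adjusted p = 0.000583). Col1a1 was at 604 to 2538 CPM against 481 to 736 CPM, with overlap (log2 fold change 1.23, SE 0.41, edgeR adjusted p = 0.264, DESeq2 adjusted p = 0.0472). The 4 fibroblast markers, which include Col1a1, also had positive fitted values (median log2 fold change 0.84), from 0.27 for Dcn to 2.34 for Lum. Of these 4, 0 were called by edgeR (2 at an unadjusted p under 0.05) and 2 by DESeq2, where 3.12% of all genes were higher, and without ApoE-/- replicate 1 edgeR called 3, where 2.75% were. Their sum was 1909 to 4910 CPM in ApoE-/- and 2045 to 2317 CPM in WT aortas. Their part in the collagen levels was not tested.

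For Sirpa and Pirb, the ligand genes Cd47 and B2m had small fitted values. Cd47 was at 136 to 199 CPM in ApoE-/- and 134 to 145 CPM in WT aortas (log2 fold change 0.22, SE 0.13, edgeR adjusted p = 0.63). B2m, the light chain of MHC class I, was at 368 to 739 CPM against 363 to 481 CPM (log2 fold change 0.25, SE 0.24, edgeR adjusted p = 0.801). Of the further listed ligand genes, Omg, Rtn4 and Mag had log2 fold changes of 0.47 (SE 0.51), 0.39 (SE 0.26) and -0.41 (SE 0.75), without an edgeR call. A p above the threshold in 4 against 4 mice does not show that these levels were equal.

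**Figure D4:**
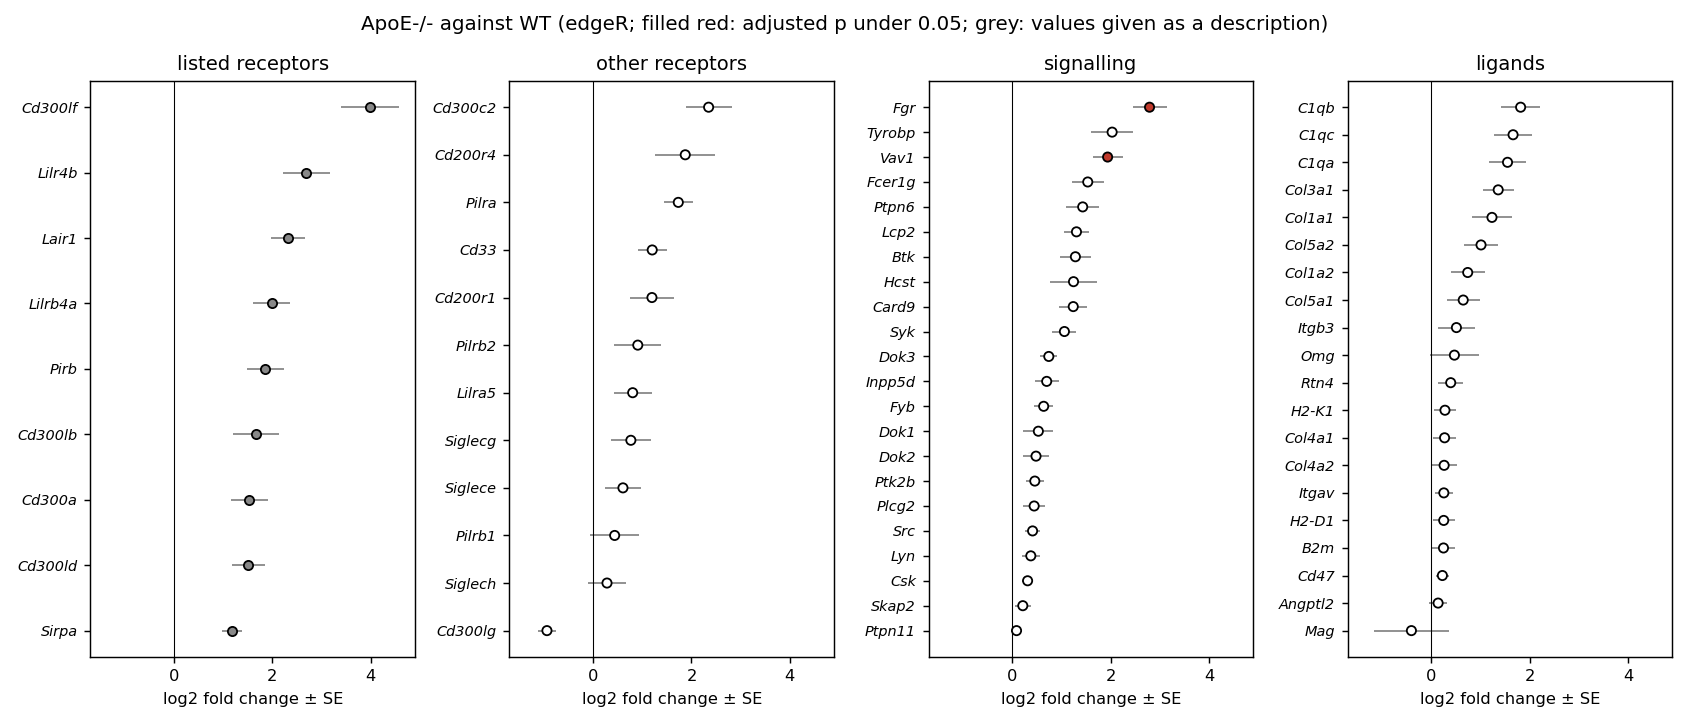
Log2 fold change of ApoE-/- against WT ± SE from edgeR for the 9 receptors with a fitted value (grey, described without a test), the other receptors, the signalling genes but 1 and the ligands, with filled red points for an adjusted p under 0.05. Fgr (2.79) and Vav1 (1.94) are the filled points, and Cd300lg (-0.94) and Mag (-0.41) are the genes left of 0.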

How the data were processed

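Whole aortas of 4 ApoE-/- and 4 WT mice were sequenced as stranded total RNA. The values deposited by the authors are raw gene counts (read pairs), neither normalized nor pooled. TopHat2, HTSeq and the GRCm38 build are named in the submitters' processing notes, while their versions and the annotation are not given in the sources used here. Rows for pairs without a gene (64.4% to 67.7% of pairs in ApoE-/- and 69.8% to 72.1% in WT libraries) were left out. Coordinates, exon lengths and transcripts came from GENCODE M21 (GRCm38), and the Cd300lb entry matched after its version number was dropped.

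Counts were analysed in R 4.3.3 with edgeR 4.0.16 (filterByExpr, TMM, glmQLFit with robust = TRUE, glmQLFTest, two-sided, Benjamini-Hochberg over 15077 genes, threshold 0.05). DESeq2 1.42.0, which the study names, limma-voom (limma 3.58.1), other scalings and filters, a replicate block and leaving out each mouse were alternatives, and the tests were tried on simulated data. The SE is the log2 fold change over the square root of F. Receptors, gene lists and alternatives were chosen with earlier results of these data known. Named genes were the receptors, list genes called by edgeR or DESeq2, the 3 with the smallest p per list, and Tyrobp, Fcer1g, Ptpn6, Ptpn11, Inpp5d, Cd47, B2m, Col1a1 and C1qa. Others are named as examples. A signalling gene that is part of the list's counts is not reported here by name.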

Additional observations from a re-analysis of the deposited data

Results flagged for a closer look

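For the receptors, the named genes and the summed marker lists, the most distant mouse of each genotype was examined by the ratio of its gap to the whole range (Dixon's ratio, 95% level). Of 102 sets of 4 mice 8 were past this level, where chance gives about 1 in 20, or 5.1. Among the 10 receptors the ratio of gap to range was past this value for Cd300lb in WT replicate 3, at 0.859 (0.997 CPM, the other WT mice 1.91 to 2.07 CPM). Among signalling genes it was 0.869 for Tyrobp in WT replicate 3 (5.43 CPM, others 7.71 to 8.05 CPM), 0.836 for Ptpn6 in ApoE-/- replicate 4 (19.6 CPM, others 8.44 to 10.3 CPM) and 0.883 for Card9 in ApoE-/- replicate 4 (8.29 CPM, others 4.05 to 4.55 CPM). For Cd200r4 it was 0.943 in WT replicate 1, on few counts (0.459 CPM, others 0.328 to 0.335 CPM).

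Among summed markers it was 0.860 for monocytes in WT replicate 3 (12.7 CPM, others 21.1 to 22.4 CPM). In ApoE-/- replicate 1 it was 0.933 for sympathetic neurons (3674 CPM, others 40.9 to 284 CPM) and 0.899 for nerve glia (313 CPM, others 27.1 to 55.9 CPM). These are given as values, and their part in the receptor levels was not tested.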

How the results depend on the processing

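Higher genes called among all tested, the receptors and signalling genes numbered 56, 2 and 2, and lower genes 14. With DESeq2 the numbers were 470, 9, 11 and 255, with 1 higher and 1 lower relative of the same families, 2 other paired receptors and 5 ligands, where edgeR gave 0 of each. With limma-voom they were 21, 0, 1 and 8. Upper-quartile factors left 1 signalling gene, and at least 10 counts in every library left 1 receptor (Cd300lf was no longer tested) and 9 lower genes.

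The replicate numbers belong to different mice, and same-numbered deviations correlated at -0.45 to 0.32 (1 of 4 ApoE-/- mice matched its own number best), so the fits are unpaired. With the replicate block, edgeR called 1 higher and 1 lower gene, 0 receptors and 0 signalling genes.

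Leaving out each mouse, edgeR called 0 to 417 higher and 0 to 176 lower genes, 0 to 9 receptors, 0 to 10 signalling genes, 0 to 7 ligands, 0 to 2 other paired receptors and 0 to 1 relatives in each direction. DESeq2, added after seeing the data, called 291 to 871 higher and 141 to 691 lower genes, 8 to 9 receptors, 8 to 16 signalling genes, 4 to 8 ligands and 0 to 1 lower, 1 to 4 other paired receptors, and 1 to 2 higher relatives. The log2 fold changes of the 9 receptors kept their sign and moved by less than 1 SD between replicates in all 24 alternatives in which they were fitted (215 values).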
